A study of Mus musculus with 7 samples.

Results

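Transcript levels were examined for 10 genes that mark long-term hematopoietic stem cells: Procr, Slamf1, Mecom, Hlf, Fgd5, Hoxb5, Ctnnal1, Meis1, Mllt3 and Txnip. They were taken by gene symbol from the deposited counts, and all 10 were found among 24421 symbols. The RNA came from LSK cells (Lin-Sca1+Kit+), the sorted fraction of mouse bone marrow that holds the stem cells together with a larger number of multipotent progenitors. Marrow from Ddx41+/+ Rosa-CreERT2 or Ddx41+/flox;Rosa-CreERT2 donors was transplanted into lethally irradiated BoyJ mice. All recipients then received tamoxifen (1 mg in 50 µl corn oil) in 2 rounds of 5 days with 2 days between rounds, and marrow was collected 8 weeks after the transplant. The 4 Ddx41+/+ samples (replicates 1 to 4) and the 3 samples in which tamoxifen deletes a floxed allele, called Ddx41+/- (replicates 6 to 8), therefore share the Cre transgene, the drug, the irradiated host and the transplant. The Rosa26 promoter that drives CreERT2 is active in nearly all cell types. The labels name no gate on donor CD45 for this sort, so whether host LSK cells that outlived irradiation were excluded is not known.

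Long-term stem cells are rare, mostly quiescent cells that can rebuild all blood lineages for life, and within LSK they are told apart from multipotent progenitors by surface proteins such as CD150 and EPCR and by the lack of CD48. Their transcription factors hold the cells in a self-renewing state, and transcripts of the genes described here decline as the cells enter the progenitor pool. A level measured in whole LSK cells is an average over both compartments. In such bulk samples, fewer cells of a type and less RNA per cell cannot be told apart.

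Each library held between 32234499 and 43751290 counts, and the ribosomal RNA precursor Rn45s took 0.623% to 2.92% of them. Ddx41, the targeted gene, was at 92.8, 98.8, 93.3 and 107 CPM (counts-per-million units, scaled to library size) in the Ddx41+/+ samples and at 68.1, 64.4 and 69.5 CPM in the Ddx41+/- samples. These groups did not overlap, and the Ddx41+/- mean was 68.8% of the Ddx41+/+ mean (log2 fold change -0.54, standard error (SE) 0.071, edgeR adjusted p = 0.0052). Among the gate genes, Kit averaged 466 ± 32.2 CPM (SD over 4 samples) in Ddx41+/+ and 468 ± 19.4 CPM (SD over 3) in Ddx41+/-. Ly6a, which encodes Sca1, averaged 20.9 ± 2.56 and 20.8 ± 8.82 CPM, and Ptprc, which encodes CD45, 207 ± 8.82 and 217 ± 5.78 CPM.

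All 10 marker genes passed the filter on low counts and were tested with the 13340 genes that passed it. In 9 of the 10 the fitted difference was below 0, that is lower in Ddx41+/-, against 51.2% of all genes tested. A single gene, Txnip, fell at an adjusted p under 0.05 (a gene past this threshold is said to be called), where 0.217% of all genes tested passed that threshold in either direction and 0.0975% as lower in Ddx41+/-. At an unadjusted p under 0.05, 6 marker genes were lower in Ddx41+/-, against 4.93% of all genes. In 5 (Procr, Slamf1, Hlf, Meis1 and Txnip) every Ddx41+/- sample lay below every Ddx41+/+ sample, against 5.21% of all genes. The median log2 fold change of the 10 genes was -0.37, beside -0.00482 over all genes tested, and 6.39% of all genes had a value at or below it. The remaining gene, Mllt3, had a positive fold change that rested on 1 sample.

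**Figure D1:**
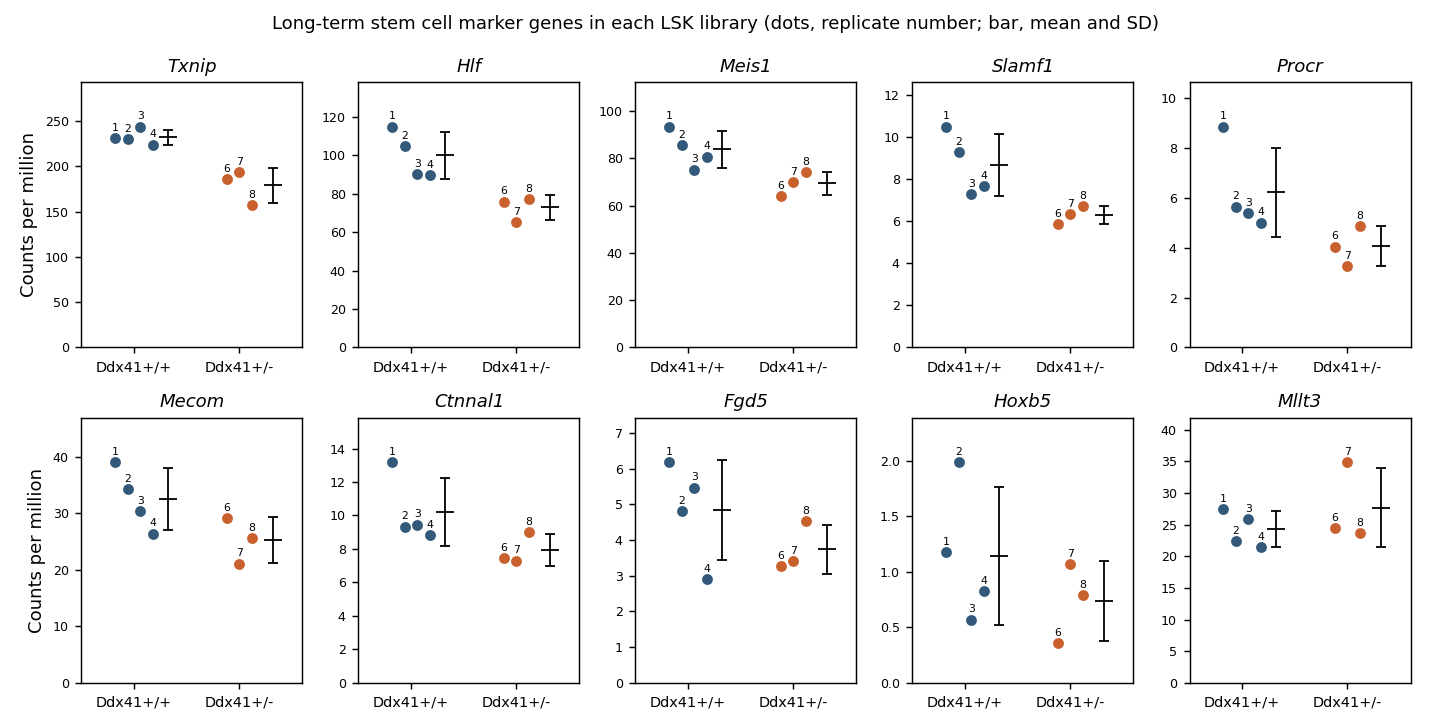
Each panel plots the CPM of 1 marker gene on a linear axis from 0, with 1 dot per sample labelled by its replicate number and, to the right, the mean and SD of each genotype. The Ddx41+/- dots lie below all Ddx41+/+ dots for Txnip, Hlf, Meis1, Slamf1 and Procr, and the genotypes overlap for the other 5 genes.

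Levels were compared between genes only as CPM per kilobase of exon. In Ddx41+/+ samples Txnip was highest at 74.4 ± 2.75 CPM per kilobase (SD, n = 4), followed by Hlf at 15.0 ± 1.85 and Meis1 at 7.96 ± 0.732. Procr stood at 3.06 ± 0.874, Mecom at 2.62 ± 0.435 and Mllt3 at 2.02 ± 0.237, with neighbours in this order overlapping between samples. Slamf1 at 1.41 ± 0.241 and Ctnnal1 at 1.33 ± 0.262 also overlapped, and Slamf1 was above Ctnnal1 in 3 of the 7 samples. Fgd5 at 0.77 ± 0.224 was above Hoxb5 at 0.411 ± 0.222 in all 7 samples, although the ranges of the Ddx41+/+ samples overlapped. Among 12846 tested genes with a known exon length, Txnip was at the 94.7th percentile of level per kilobase, Hlf at the 68.5th and Hoxb5 at the 12.0th.

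**Figure D2:**
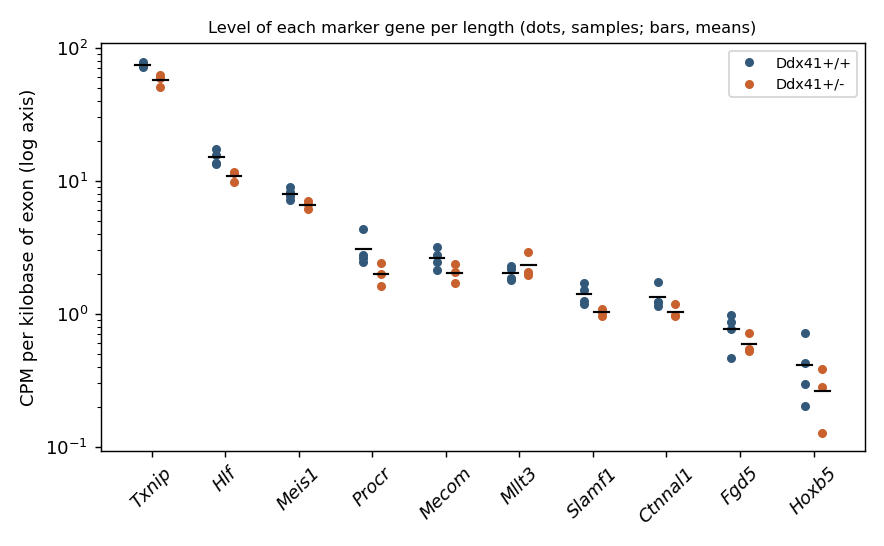
The vertical log axis gives CPM per kilobase of exon for each marker gene, with samples as dots, means as bars and genotypes by colour. Txnip lies near 74.4 in Ddx41+/+ and Hoxb5 near 0.411, and the other 8 genes fall between them.

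Procr and Slamf1 encode the surface proteins by which long-term stem cells are sorted. Procr (chr2:155751117-155755471 on GRCm38, the mm10 assembly) encodes EPCR, the endothelial protein C receptor. It was at 8.85, 5.64, 5.37 and 5.0 CPM in Ddx41+/+ and at 4.04, 3.26 and 4.87 CPM in Ddx41+/-. The groups did not overlap, but the lowest Ddx41+/+ and the highest Ddx41+/- sample lay close together and Ddx41+/+ replicate 1 stood above all others. The Ddx41+/- mean of 4.06 ± 0.804 CPM (SD, n = 3) was 65.3% of the Ddx41+/+ mean of 6.22 ± 1.78 (SD, n = 4). The log2 fold change of -0.61 (SE 0.23, 95% interval -1.11 to -0.12) did not pass the adjusted threshold (edgeR adjusted p = 0.36, exact permutation p = 0.0571). Slamf1 (chr1:171767127-171801184) encodes CD150, a receptor of the SLAM family. Its levels were 10.5, 9.27, 7.27 and 7.65 CPM in Ddx41+/+ and 5.87, 6.32 and 6.72 CPM in Ddx41+/-, again without overlap. The Ddx41+/- samples were close to each other, with a coefficient of variation of 6.78% against 17.1% in Ddx41+/+. This gave a log2 fold change of -0.46 (SE 0.18, 95% interval -0.83 to -0.09, edgeR adjusted p = 0.355, exact permutation p = 0.0571).

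The relatives of these receptors gave no call. F2r, which encodes the thrombin receptor PAR1, averaged 58.4 ± 4.07 CPM in Ddx41+/+ and 43.4 ± 8.96 in Ddx41+/- (log2 fold change -0.43, SE 0.11, edgeR adjusted p = 0.168). It had the smallest adjusted p of the 62 relatives tested over all 10 marker genes, of which 0 passed 0.05 and 6 had an unadjusted p under 0.05. Thrombomodulin (Thbd) and Cd1d1, from the same list, had log2 fold changes of -0.03 and -0.18. Cd48, the SLAM-family gene whose product is absent from long-term stem cells and present on many progenitors, averaged 121 ± 13.9 and 118 ± 10.7 CPM. Cd244, another SLAM-family gene, averaged 21.0 ± 2.07 and 17.4 ± 0.901 CPM (log2 fold change -0.27, edgeR adjusted p = 0.404), and Cd84 and Ly9 lay within -0.27 and 0.1.

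The next 4 genes encode DNA-binding transcription factors. Hlf (chr11:90336536-90390895, minus strand) encodes a basic leucine zipper factor of the PAR family, and its expression in the blood system is largely restricted to stem cells and early progenitors. Its levels were 115, 105, 90.2 and 89.9 CPM in Ddx41+/+ and 75.9, 65.3 and 77.4 CPM in Ddx41+/-. All 3 Ddx41+/- samples lay well below the lowest Ddx41+/+ sample. The mean was 72.9 ± 6.6 CPM (SD, n = 3) against 100 ± 12.3 (SD, n = 4), or 72.8%. This was the second smallest unadjusted p of the 10 marker genes (0.000186), but the log2 fold change of -0.46 (SE 0.094, 95% interval -0.66 to -0.26) missed the threshold after adjustment (edgeR adjusted p = 0.062). The exact permutation p of 0.0286 was the smallest that the 35 arrangements of 4 against 3 samples can give. Hlf was called with DESeq2 (adjusted p = 0.00221) and when genes with low counts were kept (edgeR adjusted p = 0.0106), and in none of the fits that left out 1 sample (edgeR adjusted p 0.0583 to 0.256). Of its relatives, the PAR factor Tef averaged 28.2 ± 2.82 and 27.1 ± 2.92 CPM, and Nfil3, a repressor at the same DNA element, 13.4 ± 1.85 and 12.6 ± 2.18 CPM.

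Promoter windows of the 250 bases before the RefSeq start (GRCm38.p6) were found for 9 of the 10 genes. They made 11 windows, since Mecom and Mllt3 have 2 windows each. Some annotated starts of these genes have no window here, as Mecom has 11 coding transcript starts and Mllt3 has 4. No promoter was printed for Hoxb5. Windows are shown for Txnip and Hlf, the genes with the smallest p-values, to show the sequence from which their transcripts start. The Hlf window lies at chr11:90390918-90391167 and is written on the minus strand. Its capitals mark TGACGTCA, the cAMP response element, which begins 9 bases before the start and which 1.55% of all 32851 windows hold on either strand.
Hlf: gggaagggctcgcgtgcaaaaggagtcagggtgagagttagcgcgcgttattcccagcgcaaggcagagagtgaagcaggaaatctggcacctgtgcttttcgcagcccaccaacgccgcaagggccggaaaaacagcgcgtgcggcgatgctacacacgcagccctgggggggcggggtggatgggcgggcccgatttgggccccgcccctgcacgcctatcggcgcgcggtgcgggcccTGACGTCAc

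Mecom (chr3:29951296-30548008, minus strand) encodes the zinc-finger factors EVI1 and MDS1-EVI1, and gene totals do not separate them. It was at 39.1, 34.3, 30.4 and 26.4 CPM in Ddx41+/+ and at 29.2, 21.1 and 25.6 CPM in Ddx41+/-. The groups overlapped through Ddx41+/- replicate 6, which exceeded Ddx41+/+ replicate 4. Its log2 fold change was -0.36 (SE 0.14, 95% interval -0.65 to -0.07, edgeR adjusted p = 0.354, exact permutation p = 0.114). Prdm16, its closest relative and also a stem cell factor, averaged 10.1 ± 3.15 and 10.4 ± 3.25 CPM, a log2 fold change of 0.05 (SE 0.25). The other PRDM genes above 10 CPM (Prdm2, Prdm4, Prdm10 and Prdm15) lay within -0.09 and 0.29.

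Meis1 (chr11:18879817-19018985, minus strand) encodes a homeodomain factor that binds DNA with HOX and other homeodomain partners. Its levels were 93.5, 85.7, 75.3 and 80.8 CPM in Ddx41+/+ and 64.2, 70.0 and 74.1 CPM in Ddx41+/-. The genotypes did not overlap, but Ddx41+/- replicate 8 was just below Ddx41+/+ replicate 3. The Ddx41+/- mean was 82.8% of the Ddx41+/+ mean (log2 fold change -0.27, SE 0.082, 95% interval -0.45 to -0.1, edgeR adjusted p = 0.245, exact permutation p = 0.0571). Hoxa9, a partner gene, averaged 55.9 ± 3.11 and 52.0 ± 2.19 CPM (log2 fold change -0.1, SE 0.075). Pbx2, Pbx4 and Pknox1 lay within -0.2 and 0.09, and none of these 4 genes was called.

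Hoxb5 (chr11:96303336-96306121), a homeobox gene used to label long-term stem cells, was the least abundant of the 10. It had 49, 77, 18 and 30 counts in Ddx41+/+ and 14, 36 and 35 counts in Ddx41+/-. On the CPM scale this was 1.18, 1.99, 0.569 and 0.829 against 0.355, 1.07 and 0.789. The genotypes overlapped widely, and samples of the same genotype differed by more than counting alone allows: the exact Poisson 95% interval of the 77 counts in Ddx41+/+ replicate 2 ran from 60.8 to 96.2, and that of the 18 counts in replicate 3 from 10.7 to 28.4. Such intervals cover counting error only. The log2 fold change was -0.64 (SE 0.54, 95% interval -1.79 to 0.5, edgeR adjusted p = 0.723), an interval that spans both directions. Of its neighbours in the Hoxb cluster, Hoxb4 averaged 8.48 ± 2.01 and 7.75 ± 0.782 CPM and Hoxb3 6.18 ± 0.577 and 6.39 ± 0.694 CPM, and no Hoxb relative reached 10 CPM. Antisense Hoxb5os shares 100 of the 2786 exon bases of Hoxb5 (3.59%). Whether the counting used strand was not settled by the sources, so reads in such shared bases cannot be assigned to either gene.

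Fgd5 and Ctnnal1 encode cytoplasmic proteins. Fgd5 (chr6:91978878-92076004) encodes an exchange factor for the GTPase CDC42, and reporters at this locus label long-term stem cells. It was at 6.19, 4.81, 5.47 and 2.9 CPM in Ddx41+/+ and at 3.28, 3.41 and 4.53 CPM in Ddx41+/-, with the lowest value in Ddx41+/+ replicate 4. The groups overlapped (log2 fold change -0.37, SE 0.26, 95% interval -0.91 to 0.17, edgeR adjusted p = 0.654). The fold change was -0.23 without Ddx41+/+ replicate 1 and -0.55 without Ddx41+/+ replicate 4, and it was called in neither fit. Its relatives Fgd2, Fgd3 and Fgd4 had log2 fold changes between 0.01 and 0.18, with 0 of them called. Ctnnal1 (chr4:56810935-56865188, minus strand) encodes alpha-catulin, an alpha-catenin relative, and serves as a stem cell reporter gene. Its levels were 13.2, 9.34, 9.45 and 8.81 CPM in Ddx41+/+ and 7.46, 7.3 and 9.02 CPM in Ddx41+/-. Ddx41+/+ replicate 1 stood apart at the top, and Ddx41+/- replicate 8 was above Ddx41+/+ replicate 4. Its log2 fold change was -0.36 (SE 0.17, edgeR adjusted p = 0.477, exact permutation p = 0.114). The relatives Ctnna1, Vcl, Ctnnb1 and Arhgef1 were abundant and lay within -0.04 and 0.05.

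Mllt3 (chr4:87769925-88033364, minus strand) encodes AF9, a chromatin reader that recruits elongation factors and DOT1L and that sustains stem cells in culture. It was the single marker gene with a positive fold change. Its levels were 27.4, 22.4, 25.9 and 21.4 CPM in Ddx41+/+ and 24.5, 34.9 and 23.6 CPM in Ddx41+/-. Only Ddx41+/- replicate 7 exceeded the Ddx41+/+ range, and the other 2 Ddx41+/- samples lay inside it. The log2 fold change of 0.19 (SE 0.14, 95% interval -0.1 to 0.48, edgeR adjusted p = 0.675) became -0.01 without that sample (edgeR adjusted p = 0.992). Of the genes of its complexes, Aff1 averaged 153 ± 6.9 and 181 ± 18.3 CPM (log2 fold change 0.23, SE 0.072, edgeR adjusted p = 0.259) and Dot1l 104 ± 17.1 and 116 ± 20.3 CPM (0.16, SE 0.14). Mllt1, the closest relative, averaged 127 ± 3.21 and 126 ± 4.69 CPM, and Mllt10, Aff4, Kmt2a and Men1 lay within -0.09 and 0.23.

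Txnip (chr3:96557957-96561883) encodes the thioredoxin-interacting protein, an arrestin-like protein that binds thioredoxin, restrains glucose uptake and helps to keep stem cells quiescent. Its levels were 231, 230, 244 and 224 CPM in Ddx41+/+ and 186, 194 and 157 CPM in Ddx41+/-. The Ddx41+/+ samples were nearly equal, with a coefficient of variation of 3.69%, the lowest of the 10 genes, and every Ddx41+/- sample lay below them. Txnip fell from 232 ± 8.58 CPM (SD, n = 4) to 179 ± 19.9 (SD, n = 3), or to 77.1% (log2 fold change -0.38, SE 0.073, 95% interval -0.53 to -0.22). The edgeR adjusted p was 0.0479, close to the threshold, and the exact permutation p was 0.0286, the smallest possible. The adjusted p was 0.0451 without Ddx41+/- replicate 7 and rose above 0.05 when any other sample was left out: 0.0501, 0.147, 0.123 and 0.0818 without Ddx41+/+ replicates 1, 2, 3 and 4, and 0.0773 and 0.152 without Ddx41+/- replicates 6 and 8. The log2 fold change stayed between -0.44 and -0.29 in these 7 fits.

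The Txnip window ends at the base before the annotated start, at chr3:96557707-96557956 on the plus strand. Capitals mark a pair of CACGAG repeats 5 bases apart, the carbohydrate response element through which glucose-sensing factors act on this gene, and CCAAT boxes on either strand. The repeat pair begins 85 bases before the start, and 1 of the 32851 windows, that of Txnip, held it with this spacing on either strand. The letters searched were those of the Txnip window, chosen after it was read, so this match was fixed in advance. Variants of the element with other letters were not counted, so the share does not show how rare the element is. CCAAT occurred in 33.8% of all windows and in windows of Mecom, Meis1, Mllt3 and Txnip. These matches are descriptions of letters and not sites shown to be in use.
Txnip: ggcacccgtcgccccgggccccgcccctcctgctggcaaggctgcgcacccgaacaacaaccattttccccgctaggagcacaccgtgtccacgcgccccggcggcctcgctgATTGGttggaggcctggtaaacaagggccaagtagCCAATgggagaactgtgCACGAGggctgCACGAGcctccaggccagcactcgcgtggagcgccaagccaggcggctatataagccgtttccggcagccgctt

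Other motifs were also looked for in the windows of the 9 genes, and no test of their number was made. CCGGAAG, a core of ETS factor sites, was found in 6.91% of all windows and in that of Meis1. TGACAG, a core of MEIS sites, was found in 15.9% of all windows and in those of Fgd5, Mecom and Mllt3. AGATAA, a core of GATA sites, was found in 9.99% of all windows and in none of the 11.

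The 11 genes around Txnip were thioredoxin and arrestin family genes, the glucose-sensing partners Mlxip and Mlx, and the glucose transporter gene Slc2a1. Of these 11, 10 had a log2 fold change below 0, against 51.2% of all genes tested. Their median was -0.1, 0 were called, and 0 had an unadjusted p under 0.05. Txn1, which encodes thioredoxin, averaged 257 ± 21.6 and 238 ± 16.9 CPM, and Txnrd1, which encodes its reductase, 220 ± 7.07 and 205 ± 19.4 CPM. Arrdc4, the paralog that shares glucose control with Txnip, averaged 14.3 ± 2.2 and 12.5 ± 2.4 CPM (log2 fold change -0.19, SE 0.16). The glucose-sensing partners Mlxip and Mlx had log2 fold changes of -0.02 and -0.08, and the glucose transporter gene Slc2a1 0.08. Arrdc1, Arrdc2, Arrdc3, Txn2 and Txnrd2 lay within -0.22 and 0.08. An antisense transcript, Gm15441, shares 606 of the 3123 exon bases of Txnip (19.4%), and reads in these bases cannot be assigned to either gene without strand. Gm15441 itself was at 0.588 ± 0.328 and 0.348 ± 0.204 CPM.

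**Figure D3:**
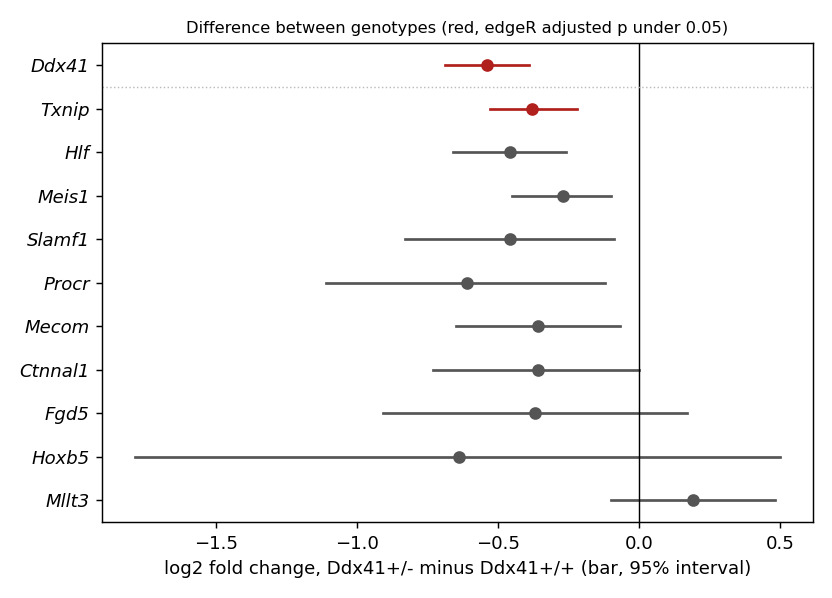
Dots give the log2 fold change (Ddx41+/- minus Ddx41+/+) of Ddx41 and the 10 marker genes, and bars the 95% interval. Ddx41 (-0.54) and Txnip (-0.38) passed an edgeR adjusted p of 0.05, the intervals of Hlf, Meis1, Slamf1, Procr and Mecom also lie below 0, and that of Hoxb5 is the widest.

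Several marker genes were high or low in the same samples. Ddx41+/+ replicate 1 had the highest value of all 7 samples for 7 of the 10 genes and was above the gene's own mean for all 10. Ddx41+/- replicate 7 had the lowest value for 4 genes and replicate 6 for 3. Expressed as log2 CPM minus each gene's mean over the 7 samples, the median of the 10 genes was 0.43, 0.17, 0.06 and -0.03 in Ddx41+/+ and -0.27, -0.28 and -0.11 in Ddx41+/-. Every Ddx41+/- median was below every Ddx41+/+ median, and the distance from 0.43 to -0.03 within Ddx41+/+ was larger than the gap of the nearest samples between genotypes. The SD of these medians within genotypes was 0.167.

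**Figure D4:**
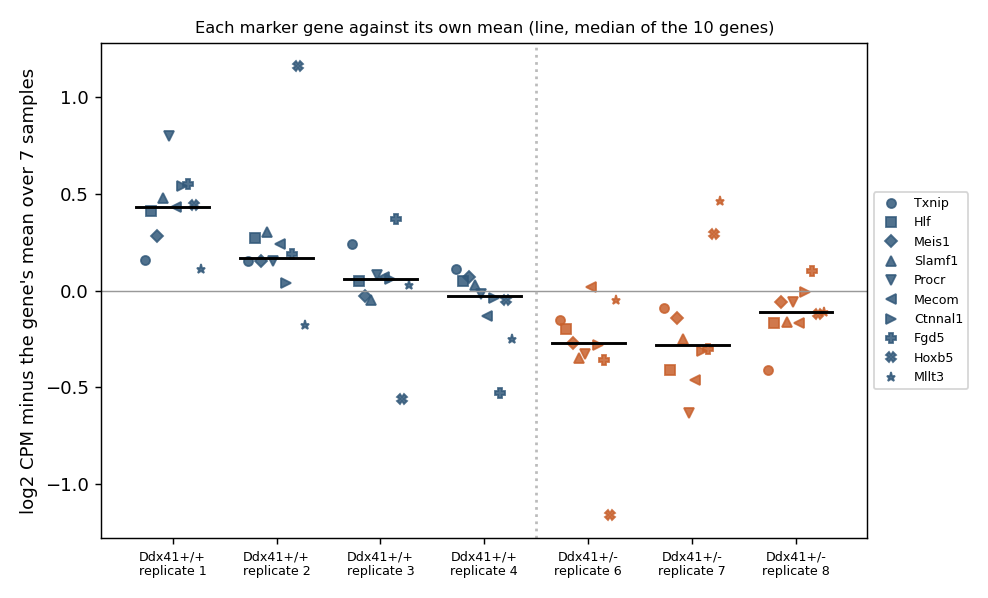
Each symbol is 1 marker gene in 1 sample, as log2 CPM minus that gene's mean over the 7 samples, and each line is the median of the 10 genes. Medians run from 0.43 in Ddx41+/+ replicate 1 to -0.28 in Ddx41+/- replicate 7, and the widest scatter is that of Hoxb5.

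Summed over the 10 genes, the CPM was 546.7, 507.7, 494.2 and 467.9 in Ddx41+/+ and 401.2, 406.9 and 383.2 in Ddx41+/-. Txnip alone made up 40.9% to 49.4% of that sum. Without Txnip the sums were 315.3, 278.0, 249.8 and 243.8 against 214.8, 212.6 and 226.6, and the genotypes did not overlap. Hlf (means of 100 and 72.9 CPM) and Meis1 (83.8 and 69.4 CPM) made up most of each of these sums. Both genes were already without overlap on their own, so the sums say little about the less abundant genes.

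Spread among mice differed between the genes. In Ddx41+/+ samples the coefficient of variation was 3.69% for Txnip, 9.2% for Meis1, 11.7% for Mllt3 and 12.3% for Hlf. It was 28.6% for Procr, 29.1% for Fgd5 and 54.2% for Hoxb5. In Ddx41+/- samples it was 11.1% for Txnip, 7.18% for Meis1, 22.7% for Mllt3 and 9.06% for Hlf. The common biological coefficient of variation over all genes tested was 12.9%. That value leaves out counting error and pools both genotypes, while those of single genes include counting error, so the measures are unlike. On the log2 CPM scale the Ddx41+/+ samples spanned 0.13 for Txnip and 0.36 for Hlf. These spans were smaller than their differences between genotype means of -0.38 and -0.45. For every other marker gene the span was larger than the difference. It was 0.52 for Slamf1 and 0.31 for Meis1, beside differences of -0.44 and -0.27. For Procr, Fgd5 and Hoxb5 it was 0.82, 1.08 and 1.72, beside -0.59, -0.33 and -0.58.

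Profiles over the 7 samples were set against the average profile of the 10 by the root-mean-square difference of log2 CPM deviations. This was done for 8710 other protein-coding genes with a mean of at least 10 CPM. The nearest were Fam171a1 (0.0539), the kinase gene Fyn (0.0784), Angpt1 (0.0847), Myof (0.0851) and Adgrg1 (0.0862). Angpt1 encodes angiopoietin-1, the ligand of the stem cell receptor TIE2. Adgrg1, which encodes the adhesion receptor GPR56, was at 1290, 1160, 1050 and 1060 CPM in Ddx41+/+ and at 892, 847 and 907 CPM in Ddx41+/-. These 5 were chosen by their likeness, so their genotype difference carries no separate test. Of the 10 marker genes themselves, Slamf1 was nearest to the average (0.0654), and Mllt3 (0.335) and Hoxb5 (0.551) were farthest. Each of the 10 is part of that average, so these distances are not like those of the other genes.

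A second list held 40 other genes known from stem cell profiles, of which 37 were tested. In 30 of the 37 the fold change was below 0, 1 was called as lower and 0 as higher, and the median log2 fold change was -0.22. The called gene was Gimap1, a GTPase of the immune-associated family, which fell from 26.4 ± 1.89 to 16.5 ± 0.509 CPM (log2 fold change -0.68, SE 0.1, edgeR adjusted p = 0.0121). The next smallest p-values were those of Trim47 (log2 fold change -0.65, edgeR adjusted p = 0.249), the guidance receptor gene Robo4 (-0.51, edgeR adjusted p = 0.293) and the homeobox gene Nkx2-3 (-0.71, edgeR adjusted p = 0.293). A list of 20 genes, named here for multipotent progenitors, also held myeloid genes such as Mpo, Elane, Prtn3 and Fcgr3. Of the 20, 9 had a fold change below 0 and 11 above, 0 were called, and the median was 0.05. That median joins genes that went in opposite directions, so it does not show that progenitor genes were unchanged. At an unadjusted p under 0.05, 4 of the 20 were lower in Ddx41+/- (Flt3, Cd34, Cd27 and Satb1). Another 4 were higher (Mpo, Elane, Prtn3 and Fcgr3). The summed levels of the 20 genes were 22700 to 26600 CPM in Ddx41+/+ and 27200 to 29100 CPM in Ddx41+/-, without overlap. Mpo alone, at 14300 and 16400 CPM on average, made up most of each sum. The genes of this list with the smallest p were Elane, the neutrophil elastase gene (0.26, edgeR adjusted p = 0.264), Cd27 (-0.22, edgeR adjusted p = 0.284) and Mpo, the myeloperoxidase gene (0.2, edgeR adjusted p = 0.314).

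**Figure D5:**
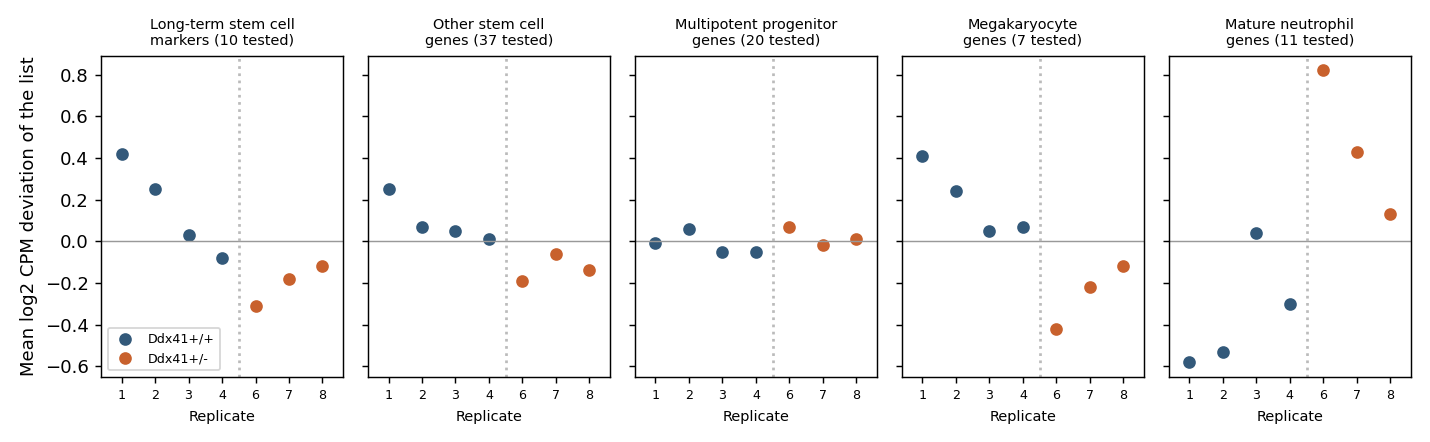
Each dot is 1 sample, and the vertical axis is the mean over a list's tested genes of log2 CPM minus each gene's mean over the 7 samples. The 10 marker genes run from 0.42 to -0.31 and the megakaryocyte genes from 0.41 to -0.42. Multipotent progenitor genes stay within -0.05 and 0.07, but that list also holds myeloid genes and its mean joins genes that went in opposite directions. Mature neutrophil genes are highest at 0.82 in Ddx41+/- replicate 6.

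Markers of other cells moved with the genotype to different degrees. Of 11 mature neutrophil genes tested, 10 had a fold change above 0, all 10 at an unadjusted p under 0.05 (median of the 11, 0.83). Of these, 1, Mmp9, was called. The list summed to 764 to 1280 CPM in Ddx41+/+ and 1370 to 2340 CPM in Ddx41+/-. Of 7 megakaryocyte genes tested, all had a fold change below 0, 3 of them at an unadjusted p under 0.05. Their median was -0.47, beside -0.37 for the 10 marker genes. Among them 1, Pf4, was called (48.6 ± 4.88 and 33.0 ± 2.69 CPM, edgeR adjusted p = 0.0283). Megakaryocyte sums were 182 to 217 and 137 to 162 CPM, with Gp6 at 0 in all samples. All 7 macrophage genes tested had a fold change above 0 (median 0.29), with sums of 78.6 to 105 and 86.3 to 121 CPM. Of 9 B-lineage genes, 8 were above 0 (median 0.54), 3 of them at an unadjusted p under 0.05, with sums of 44.6 to 66.6 and 58.6 to 81.3 CPM. None of the macrophage or B-lineage genes was called. T and NK genes summed to 224 to 280 and 257 to 284 CPM, nearly all of it Nkg7 (253 and 265 CPM on average), and 3 of the 4 tested were below 0 (median -0.49, 0 called). Stromal genes summed to 30.4 to 35.3 and 24.8 to 55.3 CPM, with 4 of 6 tested above 0 (median 0.61, 0 called). Late erythroid genes summed to 24.7 to 48.7 and 35.4 to 58.0 CPM, with 2 of 3 tested above 0 (median 0.32, 0 called) and with Hba-a1, Hba-a2, Hbb-bs and Hbb-bt listed at 0 in all samples.

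Several of the marker genes are also used by endothelium. Of 11 endothelial genes 8 were tested, 6 of them below 0 and 2 above 0 (median -0.19, 0 called), and the list summed to 120 to 142 CPM in Ddx41+/+ and 115 to 122 CPM in Ddx41+/-. Egfl7 (68.6 and 57.8 CPM on average) and Tie1 (45.7 and 42.2 CPM) made up most of the sum. Emcn averaged 7.74 and 6.07 CPM, Flt1 5.72 and 7.47 CPM, and Plvap 2.98 and 2.47 CPM. The other 6 genes averaged below 1 CPM in both genotypes: Cdh5 (0.523 and 0.139 CPM), Kdr (0.403 and 0.913 CPM), Stab2 (0.845 and 0.781 CPM), Mmrn2 (0.0375 and 0.0479 CPM), Sox17 (0 and 0.0376 CPM) and Cldn5 (0 and 0.015 CPM). The part of RNA from any of these other cell types in the levels of the 10 genes was not tested.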

How the data were processed

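Poly(A) RNA-seq was performed by the authors on LSK cells of 7 recipient mice, 4 Ddx41+/+ and 3 Ddx41+/-. The authors deposited raw gene counts (whole numbers, by symbol) with no normalization. The submitters' processing notes name HISAT2 2.0.5, featureCounts 1.5.2, FastQC 0.11.7 and mm10 without their roles. The kits named by the labels and by the study's methods differ in strandedness, and the counting's strand setting is not given in the sources used here. A Ddx41+/- library, HET-5, was removed from the deposited counts and was not analysed here.

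CPM (TMM-scaled) and fold changes were computed with edgeR 4.0.16 in R 4.3.3 (filterByExpr, robust quasi-likelihood test, Benjamini-Hochberg adjustment over 13340 genes, threshold 0.05). The fit was tested on simulated data, and CPM of single genes also by exact two-sided permutation. Log2 CPM used a prior count of 2. Exon lengths and positions came from GENCODE M21 (GRCm38) and promoters from RefSeq. Alternatives used DESeq2 1.42.0 and limma 3.58.1, other scalings and filters, and leaving out each sample. No per-sample column was left unused (0). P-values rest on the spread between these recipient mice, and those of edgeR also draw on the spread of all genes tested. The fits held no term for the marrow donor, so spread between donors may not be covered. Hoxb5 had 14 to 77 counts per sample, and the lowest count of the other 9 genes was 105.

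The 10 genes and all lists were chosen with earlier results of these data known, and the motifs after the windows were read. Named genes were Ddx41, the 10 genes, in the lists of other stem cell and multipotent progenitor genes any with an adjusted p under 0.05 plus the 3 of smallest p, relatives with a mean of at least 10 CPM, and the 5 genes nearest in profile. A relative that this rule names is not reported here. Hoxb3, Hoxb4, Flt3, Cd34, Satb1, Prtn3, Fcgr3, overlapping transcripts and genes of other cell types were named after their values were seen.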

Additional observations from a re-analysis of the deposited data

Results flagged for a closer look

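In 2 cases a single sample stood apart from the other 3 of its genotype by more than the Dixon criterion allows, out of 13 values tested, where chance flags about 1 in 20. Procr was at 8.85 CPM in Ddx41+/+ replicate 1, where the other Ddx41+/+ samples were at 5.0 to 5.64 CPM. Ctnnal1 was at 13.2 CPM in the same sample, where the others were at 8.81 to 9.45 CPM. Without that sample the log2 fold change was -0.39 for Procr and -0.21 for Ctnnal1, and neither was called with or without it. The cause was not tested.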

How the results depend on the processing

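No paired analysis was possible because the genotypes share no replicate numbers. Of the 10 genes, 1 was called in the fit reported above, 0 with median-of-ratios scaling, limma-voom or a non-robust fit (Txnip adjusted p 0.0502, 0.0712 and 0.0757), and 2 (Txnip and Hlf) with DESeq2, without an expression filter, or at an adjusted p under 0.1. Leaving out 1 sample gave 0 to 1 calls. With fewer samples the test has fewer degrees of freedom, and beyond that the cause was not tested. The number of genes without overlap ranged from 5 to 8 when 1 sample was left out, all of them lower in Ddx41+/-, where 6.71% to 11.9% of all genes tested did so. It was 8 without Ddx41+/+ replicate 4 (8.09% of all genes) and 4 with library totals only (6.27%). The fold change of Mllt3 reversed to -0.01484 without Ddx41+/- replicate 7, and the other 9 genes kept their sign in all 7 such fits. Its highest value was 0.2879, without Ddx41+/- replicate 8. The median log2 fold change of the 10 genes stayed between -0.485 and -0.3089. Over all genes, calls numbered 29 in the reported fit, 15 with library totals, 24 with median-of-ratios scaling, 30 with upper-quartile scaling, 91 without a filter, 30 with at least 1 CPM in 3 samples, 164 with DESeq2, 10 with limma-voom, 37 with sample quality weights, 14 with a non-robust fit, 74 at an adjusted p under 0.1, and 7 to 41 with 1 sample left out. The log2 fold change of Ddx41 stayed between -0.56 and -0.5 and was called in all 17 alternatives. The fold change of Hoxb5, the gene with the fewest counts and the widest spread between mice, ranged from -1.0 to -0.23 with 1 sample left out.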
